A study of Mus musculus with 7 samples.

Results

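Ribosome biogenesis genes encode the factors that make and assemble ribosomes, and 46 of them were followed by name among the 23996 genes of the deposited tables. All 46 were found, in 6 groups of different roles, and each reached an FPKM of 1 in all 7 libraries (FPKM are fragments of a transcript scaled by its length and by the size of the library). RNA was sequenced from 3T3-L1, a mouse fibroblast line of embryonic origin in which hormonal inducers set off fat cell formation, and the stated aim was to find a factor that matters for this differentiation. The 0h control came from confluent cells before differentiation. At 4 h and at 24 h cells had been given MDI, a mixture of IBMX (a phosphodiesterase inhibitor), Dexa (the glucocorticoid dexamethasone) and insulin, or CM, which is MDI medium conditioned by 3T3-L1 cells after 48 h of differentiation. A last pair, labelled Pro, was preconfluent and got MDI or CM, with no time given. Each of the 7 conditions is 1 library of 1 cell line, and no library at 4 h or 24 h was without inducers, so the inducers, fresh medium and elapsed time cannot be told apart.

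The libraries are labelled as adipocytes, and the 7 adipocyte markers were at unlike levels in them. Adipoq, an adipokine, and Cfd lay under an FPKM of 1 in every library and Plin1, a lipid droplet protein, was at most 3.75 (24h CM). Lpl, a lipase of triglyceride uptake, ran from 23.7 (Pro CM) to 339 (24h CM), and Fabp4, a fatty acid carrier, from 27.9 (0h) to 108 (24h CM). The summed FPKM of the adipocyte markers was 525 in 24h CM and between 63.4 and 182 in the other libraries. The 7 fibroblast and preadipocyte markers summed to between 2226 (Pro CM) and 8037 (0h), and the 3 endothelial markers were each under 1 everywhere. The 0h sum was carried by the collagens Col1a1, Col1a2 and Col3a1, whereas Thy1 (100.1 at 0h) and Dlk1 (669 at 0h) were highest in 4h MDI, at 294 and 985. Of the macrophage and leukocyte markers, Cd68 ran from 0.654 (0h) to 2.27 (4h MDI), and Ptprc and Csf1r were under 1 everywhere. The part of these markers in the differences described here was not tested. FPKM are shares of a library, so a change in total RNA per cell cannot be seen in them, and fewer cells making an RNA cannot be told apart from less of it per cell. Summed FPKM over all genes ran from 558532 at 0h to 714427 in 4h MDI, and depth is unknown.

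Ribosomes are built in the nucleolus. RNA polymerase I (Pol I) transcribes a long precursor rRNA there, small nucleolar ribonucleoproteins (snoRNPs) modify it, and a large set of processing factors cut it and fold it into a small and a large subunit, which leave for the cytoplasm. The pathway takes much of the energy of a growing cell and is a well-known set of targets of the growth regulator Myc. Confluent 3T3-L1 cells given MDI are known to re-enter the cell cycle before they accumulate fat.

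The 0h control had the lowest level of 44 of the 46 genes, and none of them had its highest level there. How many of all genes had their lowest or highest level in a given library was not counted. In single treated libraries between 47.6% (4h MDI) and 50.1% (24h CM) of all genes measured were above 0h. The highest level fell in 4h MDI for 23 genes, in Pro CM for 17, in Pro MDI for 3, in 4h CM for 2 and in 24h MDI for 1. The median FPKM of the 46 genes was 15.5 at 0h, 47.3 in 4h MDI, 42.6 in 4h CM, 28.2 in 24h MDI, 29.6 in 24h CM, 39.5 in Pro MDI and 45.4 in Pro CM. Together the genes held 0.251% of the summed FPKM at 0h, 0.568% in 4h MDI, 0.483% in 4h CM, 0.371% in 24h MDI, 0.383% in 24h CM, 0.591% in Pro MDI and 0.669% in Pro CM. Levels were thus lowest before induction, high at 4 h and in preconfluent cells, and between these at 24 h. The genes with the highest and the lowest level in 4h MDI were the nucleolar chaperone gene Npm1 (1084) and the Pol I subunit gene Polr1e (10.7).

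**Figure D1:**
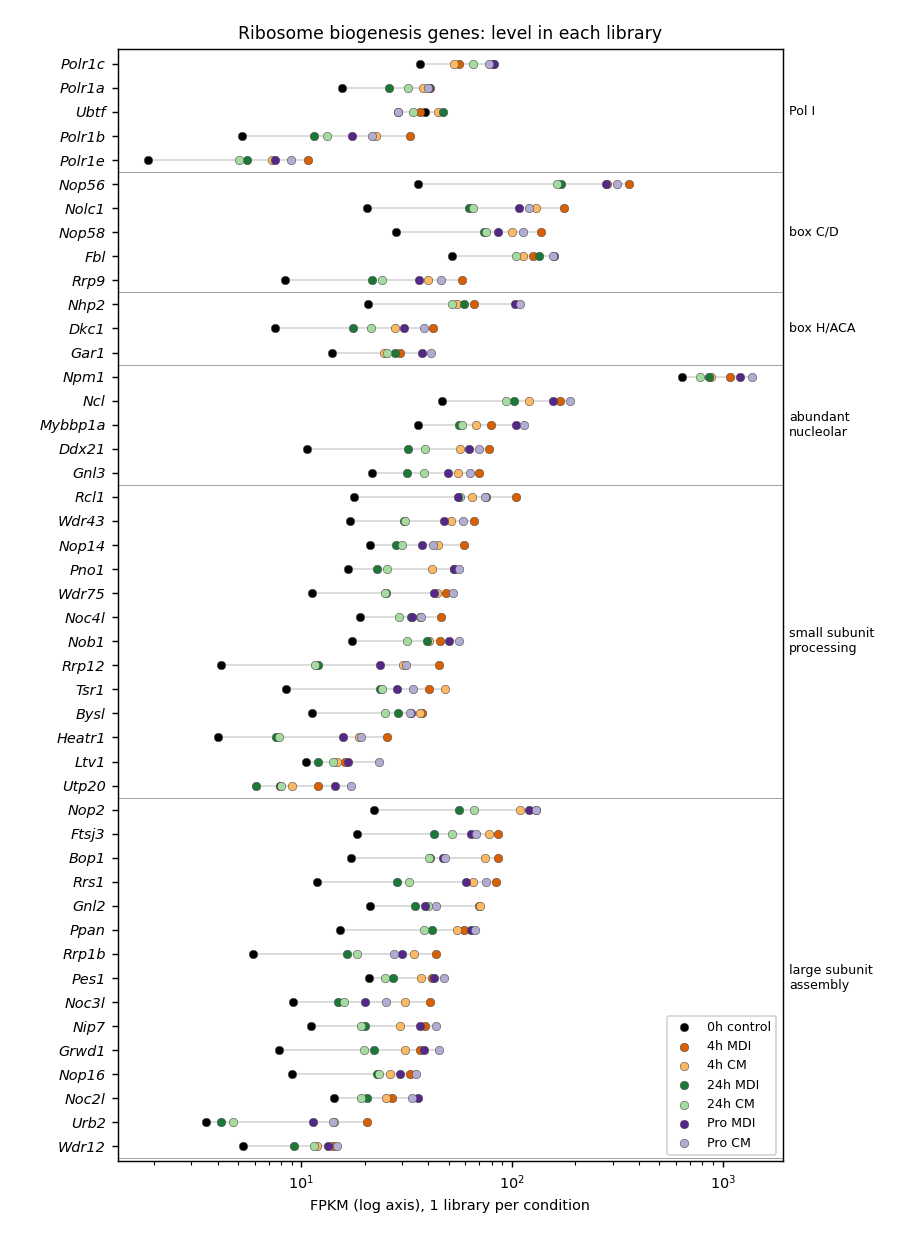
FPKM (log axis) of each of the 46 genes in the 7 libraries, 1 point per library, with genes grouped by role and the grey line spanning the lowest to the highest library. The black points of the 0h control lie at the left end for 44 genes, the exceptions being Ubtf and Utp20.

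Box C/D snoRNPs guide methylation of rRNA sugars and its first cleavages, and their genes included the largest rise of the 46. Nop56, a core scaffold protein of these particles, was at an FPKM of 35.7 in the 0h library, 359 in 4h MDI, 283 in 4h CM, 171 in 24h MDI, 163 in 24h CM, 278 in Pro MDI and 316 in Pro CM. Nolc1, a chaperone of snoRNPs, was at 20.5, 177, 131, 62.6, 65.2, 107 and 121 in the same order of libraries. Both were lowest at 0h by a wide gap and lower at 24 h than at 4 h in either medium. Nop56 had the largest difference of all 46 genes in limma (a linear model over all 7 libraries that compares the mean of both media with 0h), at 3.12 on the log2(FPKM + 1) scale at 4 h (SE 0.21, adjusted p = 0.0243). Nop58, the partner of Nop56 on the snoRNA, was at 28.1 at 0h, 137, 99.9, 73.2, 75.3, 85.97 and 113. Rrp9, a protein of the snoRNP that guides early cleavages, was at 8.38, 57.6, 39.8, 21.7, 24.1, 36.0 and 46.02. The methyltransferase gene Fbl had another profile, with 51.6 at 0h, 126 in 4h MDI, 112 in 4h CM, 134 in 24h MDI, 104 in 24h CM, 158 in Pro MDI and 157 in Pro CM. Its levels at 4 h and 24 h overlapped, unlike those of the other genes of this group. All 5 genes of the group rose at 4 h against 0h (all genes 8.23%), with a median log2 difference of 2.38.

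Box H/ACA snoRNPs convert uridine to pseudouridine. Dkc1, the enzyme of these particles, was at 7.48 at 0h, 42.1 in 4h MDI, 27.9 in 4h CM, 17.5 in 24h MDI, 21.5 in 24h CM, 30.9 in Pro MDI and 38.2 in Pro CM. Nhp2, a core protein, was at 20.6, 66.1, 54.9, 59.3, 52.0, 103 and 109. The preconfluent pair was the highest for Nhp2 and also for Gar1, which ran from 14.02 at 0h to 41.2 in Pro CM, whereas Dkc1 was highest in 4h MDI. All 3 genes rose at 4 h and in the Pro pair against 0h (all genes 8.23% and 13.3%).

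Pol I genes did not all move in the same way. Polr1b, the second largest subunit, was at 5.23 at 0h, 32.9 in 4h MDI, 22.7 in 4h CM, 11.4 in 24h MDI, 13.3 in 24h CM, 17.4 in Pro MDI and 21.7 in Pro CM. Polr1e, a subunit that helps initiation and elongation, was at 1.88, 10.7, 7.25, 5.49, 5.06, 7.51 and 8.93. Polr1a, the largest subunit, ran from 15.7 at 0h to 40.8 in 4h MDI, and these 3 genes rose at 4 h (all genes 8.23%). Polr1c, which Pol I shares with Pol III, was instead highest in 24h MDI and the Pro pair, at 36.6, 55.7, 52.8, 81.3, 65.3, 81.7 and 77.5. It did not pass the test at 4 h (adjusted p = 0.0885) but rose at 24 h (log2 difference 0.98, SE 0.17, adjusted p = 0.0398). Ubtf, the HMG-box factor that binds ribosomal DNA, was at 38.5 at 0h, 36.5 in 4h MDI, 44.5 in 4h CM, 47.1 in 24h MDI, 33.8 in 24h CM, 28.7 in Pro MDI and 28.8 in Pro CM. It stayed within 1.64-fold over the 7 libraries and passed no test, with its lowest levels in the Pro pair, where most members were high.

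Abundant nucleolar proteins spanned small and large differences. Npm1, a histone and ribosome chaperone, was at 641 at 0h, 1084 in 4h MDI, 880.2 in 4h CM, 857 in 24h MDI, 779.8 in 24h CM, 1203 in Pro MDI and 1383 in Pro CM. Ncl, or nucleolin, which binds the precursor rRNA, was at 46.3, 168, 121, 102, 94.0, 156 and 187. Ddx21, an RNA helicase of the nucleolus, was at 10.6, 78.1, 56.4, 32.2, 38.8, 62.4 and 69.6. All 3 were lowest at 0h, but the highest library of Npm1 was 2.16 times its lowest, against 7.34 times for Ddx21. Npm1 has processed pseudogenes in the mouse genome, and the sources used here do not give how shared reads were counted. The stem cell nucleolar GTPase gene Gnl3 ran from 21.6 at 0h to 69.9 in 4h MDI, and Mybbp1a, a nucleolar protein that acts on Pol I and on rRNA processing, from 35.8 at 0h to 114 in Pro CM. Of these 5 genes 4 rose at 4 h, Npm1 being the exception (log2 difference 0.61, adjusted p = 0.111), and all 5 rose in the Pro pair (all genes 8.23% and 13.3%).

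Among the 13 genes for small subunit processing, Rrp12, a nucleolar repeat protein needed for subunit maturation and export, had the widest range. It was at 4.14 at 0h, 45.0 in 4h MDI, 30.5 in 4h CM, 11.99 in 24h MDI, 11.6 in 24h CM, 23.5 in Pro MDI and 31.4 in Pro CM, so its highest level was 10.9 times its lowest. Heatr1, a large scaffold of the small subunit processome, was at 4.03, 25.4, 18.8, 7.59, 7.87, 15.7 and 19.2. Tsr1, a GTPase-like assembly factor, was at 8.43, 40.3, 48.2, 23.6, 24.1, 28.3 and 33.9. Tsr1 and the large subunit GTPase gene Gnl2 were the 2 members with their highest level in 4h CM. Wdr43 and Wdr75, which join the growing transcript early, were lowest at 0h (16.97 and 11.2) and highest in 4h MDI (66.0) and in Pro CM (52.5). The endonuclease gene Nob1 and its partner Pno1, which act on the last precursor of the small-subunit rRNA, ran from 17.4 and 16.7 at 0h to 55.9 and 56.0 in Pro CM. Utp20, a large scaffold, was at 7.95 at 0h, 11.99 in 4h MDI, 9.05 in 4h CM, 6.09 in 24h MDI, 8.03 in 24h CM, 14.4 in Pro MDI and 17.3 in Pro CM, and passed no test. The late factor Ltv1 ran from 10.5 at 0h to 23.3 in Pro CM and passed no test either. Of the 13 genes 11 rose at 4 h, 4 at 24 h and 10 in the Pro pair (all genes 8.23%, 5.27% and 13.3%).

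All 15 large subunit assembly genes rose at 4 h (all genes 8.23%). Bop1, Pes1 and Wdr12 encode a complex of 3 proteins that acts on the large-subunit rRNA, and their levels were not parallel. Bop1 was at 17.2 at 0h, 86.03 in 4h MDI, 74.1 in 4h CM, 40.9 in 24h MDI, 40.5 in 24h CM, 47.2 in Pro MDI and 48.0 in Pro CM. Pes1 was at 21.0, 41.7, 36.8, 27.3, 24.8, 42.6 and 47.4, and Wdr12 at 5.29, 14.1, 11.9, 9.21, 11.5, 13.4 and 14.7. Bop1 was thus highest at 4 h and Pes1 and Wdr12 in Pro CM. Nop2, an rRNA methyltransferase, was at 22.2, 129.97, 108, 55.9, 65.8, 119.8 and 130.4, with near-equal levels in 4h MDI and Pro CM. Rrs1, which helps bring the smallest rRNA of the large subunit into it, was at 11.8, 83.7, 65.3, 28.3, 32.4, 60.5 and 75.2. Urb2 was at 3.53 at 0h, 20.5 in 4h MDI, 14.3 in 4h CM, 4.14 in 24h MDI, 4.71 in 24h CM, 11.3 in Pro MDI and 14.1 in Pro CM. Its 24 h levels lay nearer to 0h than to the 4 h or Pro libraries, and its fall from 4 h to 24 h was the largest among the members, with a log2 difference of -1.74 (SE 0.25, adjusted p = 0.0252). Noc2l had the smallest rise at 4 h among the members that passed the test (log2 difference 0.83, SE 0.16, adjusted p = 0.0423).

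Counted against 0h at 4 h, 41 of the 46 genes rose and none fell in limma, with p-values adjusted by Benjamini-Hochberg over all 11724 genes and a threshold of 0.05, of which 8.23% rose and 7.99% fell. Rescaled to TPM, which shifts all ratios to 0h downwards, 627 of all genes rose and 2154 fell, and 34 members rose. At an unadjusted p under 0.05, 43 members were higher and 0 lower, and 4661 of the 11724 genes passed in either direction. The median log2 difference of the 46 genes was 1.70, against -0.04 for all genes. Next to Nop56, the largest rises were those of Rrp12 (2.89, SE 0.32, adjusted p = 0.0284), Nolc1 (2.83, SE 0.24, adjusted p = 0.0243), Rrs1 (2.55, SE 0.26, adjusted p = 0.0254), Ddx21 (2.53, SE 0.28, adjusted p = 0.0282) and Rrp1b (2.53, SE 0.22, adjusted p = 0.0243). The smallest adjusted p among the members, 0.0243, was shared by Nop56, Nolc1, Rrp1b, Tsr1 (log2 difference 2.26) and Bop1 (2.15). Polr1c, Npm1, Ltv1, Utp20 and Ubtf did not pass, with Ubtf the lowest (0.06, adjusted p = 0.878, and -0.25 after rescaling to TPM). As single libraries with no replicate check, 39 members exceeded their 0h level by 2-fold or more on the log2(FPKM + 1) scale in 4h MDI and none was lower by as much, where 13.5% of 11332 genes were higher and 14.1% lower. In 4h CM 36 members were higher by this measure and none lower, where 9.53% of 11278 genes were higher and 9.35% lower. The fold in FPKM ran from 0.947 to 10.9 in MDI, with a median of 3.76, and from 1.14 to 7.93 in CM, with a median of 3.30. What is left over in this fit is how stages differ in their response to medium plus noise between libraries, with 2 degrees of freedom, so no p-value here measures the spread of replicate cultures. The single 0h library is taken to have the same spread as the treated ones. Without the 24h libraries no member passed (smallest adjusted p 0.0639), and 21 of all 11572 genes did. At an unadjusted p under 0.05, 41 members and 3443 of all genes passed in that fit. Without the filter on low values 24 members passed, as did 1185 of 17437 genes.

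**Figure D2:**
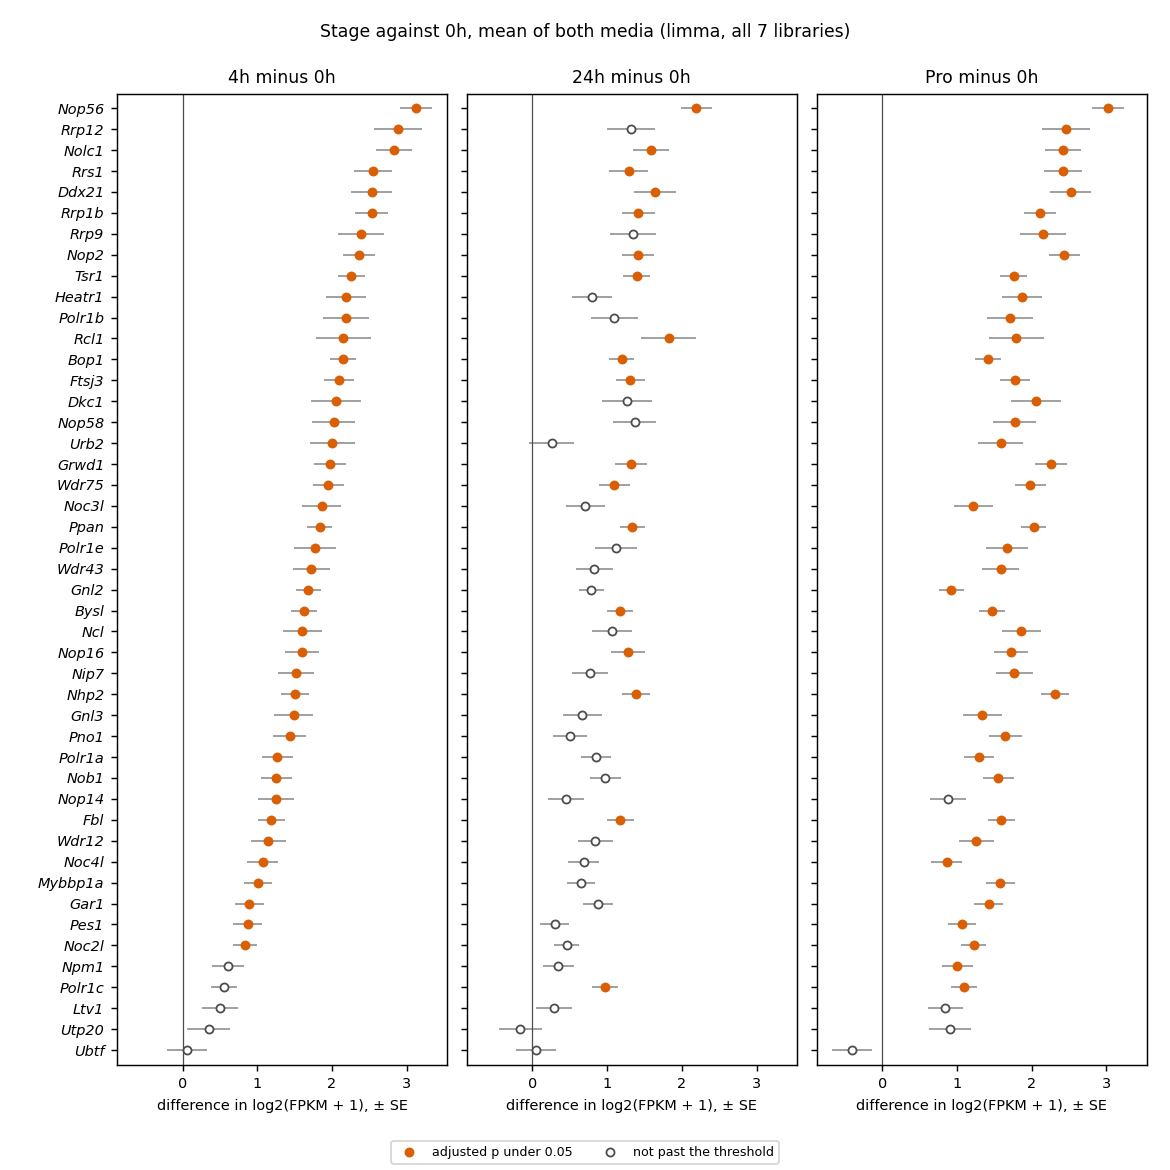
Difference in log2(FPKM + 1) of each gene at 4 h, 24 h and in the Pro pair against 0h, as the mean of both media, with the standard error from limma. Filled points passed an adjusted p of 0.05 over all genes, which were 41 genes at 4 h, 18 at 24 h and 42 in the Pro pair.

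At 24 h, 43 of the 46 genes were lower in MDI than at 4 h and 44 in CM, where 50.3% and 51.0% of all genes were lower. In each medium 45 of the 46 were above 0h at 24 h, where 48.6% (MDI) and 50.1% (CM) of all genes were. Fewer passed the test. Between 4 h and 24 h, 16 of the 46 genes fell and none rose in limma, where 8.71% of all genes fell and 9.43% rose, and the median log2 difference was -0.70 against -0.01 for all genes. At an unadjusted p under 0.05, 30 members were lower and 1 higher, and 4916 of the 11724 genes passed in either direction. After Urb2, the largest falls were those of Rrp12 (log2 difference -1.57, adjusted p = 0.0321) and Heatr1 (-1.39, adjusted p = 0.0301). All 16 genes that fell had also risen at 4 h, and both comparisons use the 4 h libraries. This overlap was not counted over all genes. As single libraries, 18 members were lower by 2-fold or more on this scale in 24h MDI than in 4h MDI and none higher, where 13.6% of all genes were lower and 12.1% higher. Between the CM libraries 3 members (Urb2, Rrp12 and Heatr1) were lower by this measure and none higher, where 7.24% of all genes were lower and 6.49% higher. Without the filter on low values no member passed between 4 h and 24 h, and 343 of 17437 genes did.

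Against 0h, 18 genes were still raised at 24 h and none had fallen, where 5.27% of all genes rose and 6.37% fell (422 up and 1125 down after rescaling to TPM). At an unadjusted p under 0.05, 37 members were higher and 0 lower, and 3851 of the 11724 genes passed in either direction. Nop56 again had the largest difference (2.195, SE 0.21, adjusted p = 0.0188), followed by Rcl1, an endonuclease-like factor of small subunit processing (1.82, SE 0.37, adjusted p = 0.0495). Rcl1 was at 17.7 at 0h, 104 in 4h MDI, 64.9 in 4h CM, 75.6 in 24h MDI, 56.5 in 24h CM, 55.1 in Pro MDI and 74.3 in Pro CM. Of the 41 genes raised at 4 h, 17 were among the 18, the other being Polr1c. Both comparisons use the 0h library, and this overlap was not counted over all genes. As single libraries, 25 members were 2-fold or more above 0h in 24h MDI, where 8.92% of all genes were above and 11.0% below it by as much. This count was 16 after rescaling to TPM and 16 with a pseudocount of 5. In 24h CM 24 members were, where 8.21% of all genes were above and 9.98% below. The 24h CM count was 20 after rescaling to TPM and 16 with a pseudocount of 5. No member was 2-fold below 0h in either library. The number of members past the test was 11 without the filter on low values and 31 at a threshold of 0.1. Of all genes 1229 of 17437 and 2695 of 11724 passed in these settings.

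Preconfluent cells also had higher levels of most of these genes than the 0h control. In the Pro pair 42 of the 46 genes rose against 0h and none fell, where 13.3% of all genes rose and 13.8% fell (1285 up and 2102 down after rescaling to TPM), and the median log2 difference was 1.66 against -0.03 for all genes. At an unadjusted p under 0.05, 45 members were higher and 0 lower, and 5183 of the 11724 genes passed in either direction. The largest differences were those of Nop56 (3.02, SE 0.21, adjusted p = 0.00846), Ddx21 (2.52, SE 0.28, adjusted p = 0.0107), Rrp12 (2.46, SE 0.32, adjusted p = 0.0142) and Nop2 (2.44, SE 0.21, adjusted p = 0.00866). Ubtf had the lowest value (-0.41, adjusted p = 0.303), and Nop14, Ltv1 and Utp20 did not pass either. Of the 41 genes raised at 4 h, 40 were raised here, with 0h shared by both comparisons. How many of all genes were raised in both was not counted. As single libraries, 38 members were 2-fold or more above 0h in Pro MDI, where 12.3% of all genes were above and 13.4% below it by as much. In Pro CM 43 members were, where 14.2% of all genes were above and 15.7% below. No member was 2-fold below 0h in either library. These cells differ from 0h in density as well as in medium, and the effects of the 2 cannot be told apart. Without the 24h libraries 25 members passed, as did 1283 of 11572 genes.

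CM and MDI were compared within each stage. Over the 3 pairs, with stage as a block, 0 of the 46 genes passed in limma, as did 0.0% of all 11463 genes. At an unadjusted p under 0.05 no member was past in either direction, and 143 of all genes were. The mean CM minus MDI differences of the members ran from -0.22 for Rcl1 to 0.19 for Ltv1 on the log2 scale. Without the 4h pair 25 members turned from below to above 0, Rcl1 among them, and after rescaling to TPM 16 did. No member was at least 2-fold different between media at any stage, where 4.06% of all genes were at 4 h, 3.42% at 24 h and 3.45% in the Pro pair.

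Within single pairs the small differences had a direction, which differed with stage. At 4 h 43 of the 46 genes were lower in CM than in MDI and 3 higher, where 46.3% of all genes were lower, and the median log2 difference was -0.31. The lowest was Rcl1 (-0.68, with 104 in MDI and 64.9 in CM), and the 3 genes higher in CM were Ubtf, Tsr1 and Gnl2. At 24 h 25 genes were higher in CM and 21 lower, where 51.3% of all genes were higher. The median there was 0.03, against 0.0098 for all genes. In the Pro pair 40 genes were higher in CM and 6 lower, where 48.1% of all genes were higher, and the median was 0.18, with Ltv1 the highest (0.45, with 16.7 in MDI and 23.3 in CM). In all, 37 genes were lower in CM at 4 h and higher in the Pro pair, as were 3631 of the 10375 genes measured in both pairs. With 1 library per condition these differences have no replicate check, and the difference between stages was not tested.

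**Figure D3:**
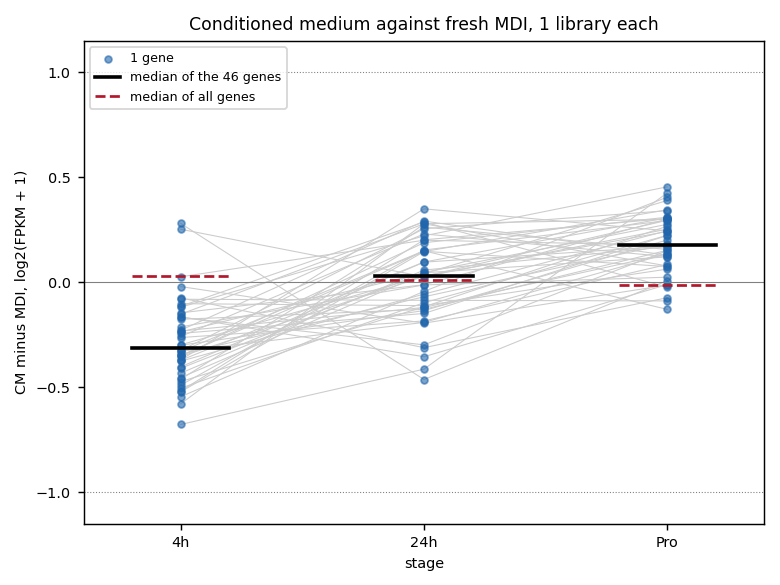
CM minus MDI in log2(FPKM + 1) for each of the 46 genes at 4 h, at 24 h and in the Pro pair, 1 library each, with grey lines joining the same gene, which mark no order in time for Pro. The medians of the 46 genes (black) are -0.31, 0.03 and 0.18, and every point lies within the dotted lines of a 2-fold difference.

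Other genes of the pathway were counted in the same way. Their lists, like the 46 genes, were chosen with earlier results of these data known, so they are no independent check. Over 6 further lists with 131 genes in the tables, 64 rose and 1 fell at 4 h (all genes 8.23% and 7.99%), with a median log2 difference of 1.00. At 24 h 12 of them rose and none fell (all genes 5.27% and 6.37%), with a median of 0.46, and in the Pro pair 76 rose and none fell (all genes 13.3% and 13.8%), with a median of 0.95. Between 4 h and 24 h 24 fell and 4 rose (all genes 8.71% and 9.43%). The lists were small subunit processome (19 of 39 up at 4 h), large subunit assembly (25 of 43), Pol I machinery (5 of 10), snoRNP assembly (5 of 11 up and 1 down), exosome (4 of 14) and export with late maturation (6 of 14). Mphosph10, a protein of the early processome, was at 7.78 at 0h, 44.1 in 4h MDI, 35.5 in 4h CM, 19.4 in 24h MDI, 19.3 in 24h CM, 27.5 in Pro MDI and 32.0 in Pro CM. Rrn3, which makes Pol I able to initiate, was at 17.3, 46.9, 40.8, 26.3, 28.7, 39.8 and 44.1. Both had the course of most members, low at 0h and lower at 24 h than at 4 h. Exosc6, a subunit of the exosome, which trims rRNA ends, was at 11.9, 43.0, 48.3, 52.1, 46.1, 82.2 and 70.7. Its 4 h and 24 h levels overlapped, and of the 14 exosome genes 2 rose and none fell between these times. Pih1d1, an assembly cofactor of snoRNPs, was at 23.9 at 0h, 7.83 in 4h MDI, 8.15 in 4h CM, 41.6 in 24h MDI, 25.2 in 24h CM, 16.5 in Pro MDI and 15.2 in Pro CM, and rose between 4 h and 24 h.

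The ribosome's own protein genes were counted too. Of 77 cytosolic ribosomal protein genes none passed at 4 h, 3 rose at 24 h and 2 in the Pro pair, and none fell, where 8.23%, 5.27% and 13.3% of all genes rose, with median log2 differences of 0.27, 0.48 and 0.10. Their summed FPKM was 148745 at 0h, 172943 in 4h MDI, 189484 in 4h CM, 230182 in 24h MDI, 201584 in 24h CM, 170572 in Pro MDI and 159448 in Pro CM, highest in 24h MDI. Rpl37a was at 1327 at 0h, 1695 and 1935 at 4 h, 3158 and 3116 at 24 h, and 1188 and 1193 in the Pro pair, in MDI and CM each. Many of these genes have near-identical pseudogenes, so their values are uncertain. Whether the 2 kinds of gene differ in response was not tested.

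**Figure D4:**
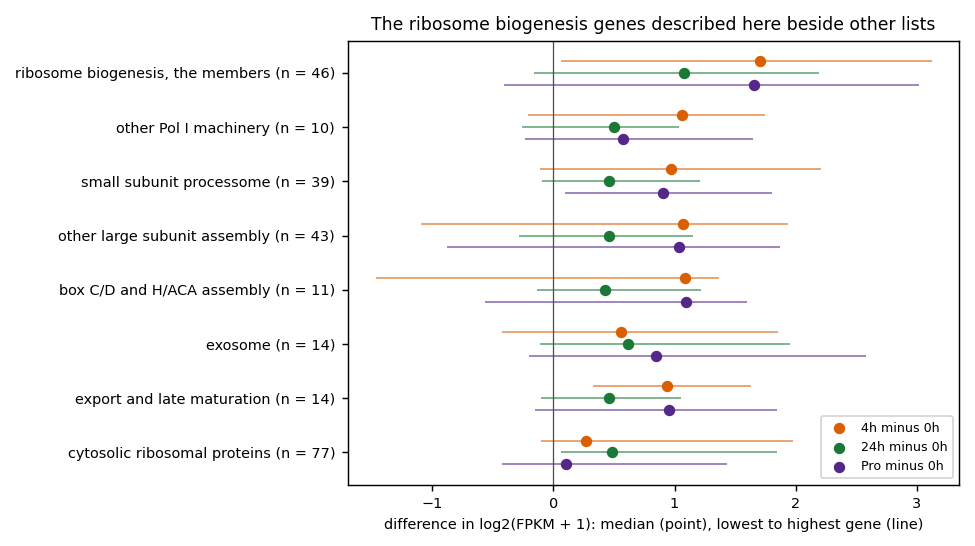
Median (point) and range from lowest to highest gene (line) of the difference in log2(FPKM + 1) from 0h, as the mean of both media, at 4 h, 24 h and in the Pro pair. The 46 genes have medians of 1.70, 1.08 and 1.66, and the 77 ribosomal protein genes 0.27, 0.48 and 0.10.

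Myc, a known activator of this pathway, was at 3.98 at 0h, 136 in 4h MDI, 97.1 in 4h CM, 44.6 in 24h MDI, 58.3 in 24h CM, 46.4 in Pro MDI and 49.4 in Pro CM. It rose at 4 h (log2 difference 4.54, SE 0.30, adjusted p = 0.0243). Mxd4, of a family that competes with Myc for its partner Max, was at 108, 27.3, 22.8, 63.1, 61.1, 26.8 and 22.2. It fell at 4 h (log2 difference -2.08, SE 0.17, adjusted p = 0.0243). Mxd1, of the same family, rose at 4 h (log2 difference 1.79, SE 0.18, adjusted p = 0.0254), from 4.32 at 0h to 16.5 in 4h MDI and 18.2 in 4h CM. Of the 9 genes tested among Myc, Max, the Mxd family and their relatives, 3 rose and 1 fell at 4 h (all genes 8.23% and 7.99%). Their part in the levels of the 46 genes was not tested.

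Myc with Max binds the E-box letters CACGTG, which read the same on both strands, so the RefSeq promoter windows of build GRCm38.p6 (250 bases before to 50 after each start site) were searched for them. Windows were found for 40 of the 46 genes. Of these 9 (22.5%) hold the letters, against 8.09% of 27025 genes with a window and 12.5% of the 7319 genes that reached an FPKM of 5 in any library. In 8 of the 9, or 20% of the 40, the letters start after the start site, at positions 3 to 41, against 1.28% of all genes and 2.02% of those that reached an FPKM of 5. Before the start site 1 of the 40 (2.5%) holds them, a smaller share than the 6.86% of all genes and 10.4% of those that reached an FPKM of 5. This split by position was chosen after the values were seen. The variant CACGCG, read on both strands, was found for 13 members (32.5%), against 10.5% and 21.4%. The median log2 difference at 4 h was 1.44 for the 9 genes with CACGTG, from 0.35 (Utp20) to 2.37 (Nop2). It was 1.77 for the 31 without it, from 0.06 (Ubtf) to 3.12 (Nop56). Whether the letters go with the size of the rise was not tested. A match is a description of letters and not a bound site. The 9 matches are shown to compare their flanks, 5′ to 3′ on the gene's strand, with the E-box in capitals and up to 12 bases on each side (cut at the end of the window).
Nop2, chr6:125131811-125131840, plus strand: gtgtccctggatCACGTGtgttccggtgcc
Pes1, chr11:3963965-3963994, plus strand: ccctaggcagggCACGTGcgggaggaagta
Wdr43, chr17:71616220-71616249, plus strand: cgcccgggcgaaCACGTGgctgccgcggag
Tsr1, chr11:74898092-74898121, plus strand: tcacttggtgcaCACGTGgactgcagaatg
Ltv1, chr10:13193092-13193121, minus strand: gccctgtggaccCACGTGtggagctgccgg
Grwd1, chr7:45830740-45830767, minus strand: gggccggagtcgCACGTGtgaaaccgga
Pno1, chr11:17211540-17211564, minus strand: tgtacaaccacgCACGTGttcctct
Utp20, chr10:88826765-88826789, minus strand: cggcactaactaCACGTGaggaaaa
Mybbp1a, chr11:72441355-72441376, plus strand: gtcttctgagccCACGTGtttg

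For the largest rise with and without the letters, the 250 bases before the start site are given whole. The Nop2 stretch has a GC content of 67.6% with CACGTG 60 bases before the start site, and the Nop56 stretch has 65.2% and neither CACGTG nor CACGCG.
Nop2, chr6:125131633-125131882, plus strand: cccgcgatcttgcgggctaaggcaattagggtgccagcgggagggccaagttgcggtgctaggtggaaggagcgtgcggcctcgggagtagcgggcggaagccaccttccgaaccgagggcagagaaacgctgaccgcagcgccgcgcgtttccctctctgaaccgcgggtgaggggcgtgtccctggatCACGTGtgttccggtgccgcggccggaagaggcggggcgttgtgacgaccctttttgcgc
Nop56, chr2:130274162-130274411, plus strand: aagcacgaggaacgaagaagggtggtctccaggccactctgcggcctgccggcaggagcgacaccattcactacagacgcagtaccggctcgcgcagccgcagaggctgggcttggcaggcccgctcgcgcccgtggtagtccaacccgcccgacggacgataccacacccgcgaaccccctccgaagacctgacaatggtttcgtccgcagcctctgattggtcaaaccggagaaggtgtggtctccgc

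The members are spread over 17 chromosomes, with at most 8 on 1 chromosome (chromosome 11). Loci of 15 members overlap another gene of the tables, and 8 of these overlap a small RNA gene, such as Snord57 and Snord110 within Nop56, Snord11 and Snord70 within Nop58, and Snora75 and Snord82 within Ncl. The sources used here do not say whether counting used strand or whether reads of these small RNA genes entered the FPKM of their hosts.

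In the authors' deposited tables all 46 genes were tested in each pair, and none had q under 0.1. Few of all genes had: against 0h 43 of 12624 in 4h MDI, 24 of 12569 in 4h CM, 23 of 12639 in 24h MDI and 27 of 12633 in 24h CM. Between media they were 0 at 4 h, 0 at 24 h and 1 in the Pro pair. The authors' p-value was under 0.05 for 26 members in 4h MDI against 0h (7.79% of genes tested), with the smallest p for Rrp12 (0.0008, q = 0.182), and for 21 in 4h CM (4.78%). At 24 h the authors' deposited tables had 4 members with p under 0.05 in MDI (5.85%) and 6 in CM (5.22%), and for the 3 pairs of CM and MDI none, against 0.814% at 4 h, 0.425% at 24 h and 0.722% in the Pro pair. These p-values compare 2 libraries without replicates.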

How the data were processed

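Total RNA was extracted with Trizol and sequenced by a standard Illumina method, per the labels' protocols. The submitters' processing notes name TopHat2 2.0.13 and Cuffdiff 2.2.0. Settings and build: not given in the sources used here. Per the file headers, the authors deposited FPKM with a p-value and a q-value per gene in 7 tables, each comparing a pair of libraries. Values of 1 library in different tables differed by at most 1.1e-16 and were joined. An empty line in each table was skipped. Loci were matched by symbol to GENCODE M21 (GRCm38) and overlapped for 22394 of 22622 symbols (99.0%) and for all 46 members.

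Pairs of libraries were compared by a rule of size (2-fold on the log2(FPKM + 1) scale) among genes that reached an FPKM of 1 in either of them. Limma 3.58.1 with an intensity trend was fitted on log2(FPKM + 1) to all 7 libraries (stage and medium, with 0h midway between the media) or to the 6 treated ones (stage and medium), with Benjamini-Hochberg adjustment at 0.05. It was also run on simulated data with independent noise, the same in all libraries, and a response to medium that did not differ with stage. That run cannot check the spread of replicate cultures or of the single 0h library. The named genes were all members, up to 2 called genes with the smallest adjusted p per other list and comparison, and the Myc family. Members and lists were chosen with earlier results of these data known. Alternatives were a pseudocount of 0.1 or 5, no filter, a filter at an FPKM of 5, rescaling to TPM or to a median ratio of 1, no trend, a threshold of 0.1, and fits without some libraries. R 4.3.3 ran limma, and Python 3.11.15 with pandas 2.3.3, numpy 2.4.6 and matplotlib 3.10.9 did the rest.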

Additional observations from a re-analysis of the deposited data

Results flagged for a closer look

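The direction of the difference between media was not the same at each stage, which is what flagged the 3 median differences of the 46 genes. CM minus MDI was -0.31 at 4 h, 0.028 at 24 h and 0.18 in the Pro pair on the log2 scale. Each value rests on 1 library per medium, and the difference between stages was not tested. At 24 h the median was 0.15 after rescaling to TPM and 0.0051 with median-of-ratios scaling. At 4 h it was -0.25 and -0.35, and in the Pro pair 0.18 and 0.17.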

How the results depend on the processing

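No paired analysis was possible because each condition has 1 library, so no replicate numbers pair cultures; the stage block in CM against MDI joins libraries by stage only. In limma the number of members called at 4 h against 0h was 24 without the filter and 0 without the 24h libraries, against 41. Over all genes it was 1185 and 21, against 1902. At 24 h against 0h the number of members was 11 without the filter and 31 at a threshold of 0.1, against 18. Between 4 h and 24 h it was 0 without the filter and 27 at a threshold of 0.1, against 16, and in the Pro pair 25 without the 24h libraries, against 42. The count of members at least 2-fold different in 24h MDI against 0h was 16 with a pseudocount of 5 and 16 after rescaling to TPM, against 25, and in 24h CM against 4h CM 1 with a pseudocount of 5, against 3. The cause was not tested. The other counts stayed within 1.5 times. At that limit lay the count of members in 24h CM against 0h, with 16 at a pseudocount of 5, against 24. Rescaling to TPM shifted log2 ratios to 0h by between -0.36 (4h MDI) and -0.16 (Pro MDI), and 34 members still rose at 4 h. Of 2346 results of single members under an alternative, 2091 kept their direction and side of the threshold, 154 no longer passed and 38 newly passed. Another 63 turned direction, all uncalled before and after, and 57 of these were mean CM minus MDI differences. Without the 4h pair these log2 differences became Polr1b 0.25, Polr1e 0.062, Nop56 0.056, Nop58 0.21, Nolc1 0.11, Rrp9 0.25, Dkc1 0.29, Gar1 0.0069, Ncl 0.074, Npm1 0.033, Ddx21 0.21, Mybbp1a 0.082, Nop14 0.13, Rrp12 0.18, Pno1 0.11, Wdr43 0.16, Heatr1 0.16, Rcl1 0.0051, Nop16 0.14, Rrp1b 0.0097, Bop1 0.0051, Pes1 0.011, Nip7 0.094, Grwd1 0.036 and Urb2 0.22. Without the 24h pair they became Polr1a -0.069, Ubtf 0.14, Utp20 -0.063, Nop2 -0.069, Rrs1 -0.022, Wdr12 -0.0501, Noc3l -0.033 and Ftsj3 -0.038, and without the Pro pair Gnl3 -0.035, Utp20 -0.0104, Wdr75 -0.079, Nop2 -0.014, Rrs1 -0.082 and Noc3l -0.14. Rescaling to TPM gave Polr1b 0.057, Ubtf 0.0019, Nop58 0.054, Rrp9 0.051, Dkc1 0.061, Ddx21 0.047, Mybbp1a 0.038, Nop14 0.016, Pno1 0.019, Wdr43 0.051, Heatr1 0.0300, Nop16 0.052, Pes1 0.0091, Ppan 0.011, Grwd1 0.0031 and Urb2 0.045, median-of-ratios scaling Noc3l -0.012 and a pseudocount of 0.1 Dkc1 0.0011. Of the stage differences, TPM turned Ubtf to -0.25 at 4 h and -0.19 at 24 h against 0h, and gave Ubtf 0.0597, Fbl 0.064 and Gar1 0.056 between 4 h and 24 h, where median-of-ratios scaling gave Fbl 0.0015.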
